A study of Mus musculus with 20 samples.

Results

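Immunoglobulin variable (V) gene segments were followed in mouse bone marrow as the rows of the marrow count table whose symbol begins with Ighv, Igkv or Iglv and that held at least 10 counts in at least 3 of the 10 marrow libraries. The members were thus chosen by their marrow counts, the same counts that the comparison of treatments uses. Of 348 V rows, 201 met this rule: 111 of 185 Ighv (heavy chain), 87 of 160 Igkv (kappa light chain) and all 3 Iglv (lambda light chain) segments, out of 55486 genes in the table. These 201 segments held between 98.9% and 99.7% of all V counts in a library. The 5 segments that reached 10 counts in exactly 3 libraries had total counts from 55 to 273 over the 10 libraries, and the 9 rows left out with exactly 2 such libraries had 45 to 598. The rule looked at counts in both groups together: 169 segments reached 3 libraries within each group, 15 did so in the oxaliplatin group only, 10 in the vehicle group only and 7 in neither alone.

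C57BL/6 mice of both sexes, 10 weeks old at the start, received oxaliplatin or vehicle. Oxaliplatin, a platinum drug used against cancer whose adducts damage DNA, was injected intraperitoneally at 10 mg/kg in 5% dextrose, weekly for 8 weeks. The vehicle was an equal quantity of 5% dextrose without the drug. The marrow of tibia and femur was collected 6 days after dosing ended, and kidney was sampled in the same groups. Each of the 20 libraries (5 per tissue and treatment) is labelled as a biological replicate of its group, and mice are named here by group and label number. The labels name no genetic change in any group. The marrow libraries held 30660153 to 41140527 counts and the kidney libraries 24393007 to 30925430. The summed level of 4 genes of kidney epithelium (Slc34a1, Umod, Aqp2 and Lrp2) lay between 0.359 and 0.980 CPM (a count scaled to a fixed library total) in marrow and between 13637 and 16199 CPM in kidney, so the tissue labels matched this marker list in every library.

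An antibody chain begins with a V segment that V(D)J recombination joins to a short joining segment (and, in the heavy chain, a diversity segment) while a B cell develops in the marrow. The joined exon is then spliced to a constant region, and each B cell and all of its progeny keep a single productive heavy-chain rearrangement and, as a rule, a single light-chain rearrangement. Plasma cells, the antibody-secreting end stage of the lineage, transcribe these genes far more strongly than B lymphocytes and settle in the marrow. Reads of V segments in whole marrow can come from plasma cells and from other B lineage cells. The part of each, and of single clones, was not measured here. In bulk RNA, fewer cells of a type and less RNA per cell cannot be told apart, and heavy and light chains of a cell are not paired.

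The segments that took the largest part of the use in an oxaliplatin-treated mouse are shown by the last 90 coding bases of the V exon, with the last in-frame cysteine codon in capitals; in rearranged genes the stretch after this codon opens the third complementarity-determining region. The sequences are the germline transcripts of GENCODE M21 on GRCm38 and not reads of these mice. The heavy-chain leaders lie on the minus strand of chromosome 12, Ighv9-2 at chr12:114109001-114109090, Ighv1-64 at chr12:115507545-115507634, Ighv9-3 at chr12:114140692-114140781, Ighv1-53 at chr12:115158403-115158492 and Ighv6-3 at chr12:114391712-114391801.
Ighv9-2: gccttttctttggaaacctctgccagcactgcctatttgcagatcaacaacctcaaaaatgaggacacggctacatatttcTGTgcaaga
Ighv1-64: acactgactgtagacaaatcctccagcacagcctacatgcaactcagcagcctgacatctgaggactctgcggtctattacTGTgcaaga
Ighv9-3: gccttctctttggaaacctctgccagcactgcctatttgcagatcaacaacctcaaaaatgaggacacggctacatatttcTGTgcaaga
Ighv1-53: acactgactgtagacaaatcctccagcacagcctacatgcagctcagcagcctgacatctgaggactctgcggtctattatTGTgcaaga
Ighv6-3: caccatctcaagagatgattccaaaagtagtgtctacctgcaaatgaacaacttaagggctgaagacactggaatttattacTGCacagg

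The kappa leaders lie on chromosome 6, Igkv6-17 at chr6:70371904-70371993, Igkv1-110 at chr6:68271178-68271267 and Igkv3-12 at chr6:70518760-70518849 on the plus strand, and Igkv6-15 at chr6:70406469-70406558 and Igkv8-27 at chr6:70171809-70171898 on the minus strand.
Igkv6-17: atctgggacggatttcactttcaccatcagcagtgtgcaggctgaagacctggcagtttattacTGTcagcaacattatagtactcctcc
Igkv6-15: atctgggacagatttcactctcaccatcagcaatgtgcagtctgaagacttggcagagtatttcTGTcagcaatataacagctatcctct
Igkv8-27: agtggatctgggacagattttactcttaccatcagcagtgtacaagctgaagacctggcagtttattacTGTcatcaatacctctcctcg
Igkv1-110: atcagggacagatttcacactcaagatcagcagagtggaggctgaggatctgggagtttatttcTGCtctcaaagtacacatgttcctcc
Igkv3-12: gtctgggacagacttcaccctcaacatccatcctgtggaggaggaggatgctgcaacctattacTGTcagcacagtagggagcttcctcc

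A pair of segments that fell after oxaliplatin, Ighv7-1 (chr12:113896408-113896497) and Iglv3 (chr16:19241207-19241296), both on the minus strand, are shown in the same way. Iglv3 has 37 bases after the cysteine codon, more than the other lambda segments, which have 24.
Ighv7-1: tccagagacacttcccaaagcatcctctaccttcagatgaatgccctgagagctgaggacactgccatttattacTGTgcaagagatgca
Iglv3: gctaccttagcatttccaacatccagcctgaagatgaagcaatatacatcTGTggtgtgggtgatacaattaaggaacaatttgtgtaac

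Many V segments are close relatives, which bears on counting, since only uniquely aligned reads were kept. Ighv1-53 and Ighv1-64 each differ from Ighv1-72 at 12 of the 305 bases of the V exon. Iglv1 (chr16:19085017-19085106) and Iglv2 (chr16:19260401-19260490) differ at 9 of 305, of which the 3 in the last 90 bases are in capitals here.
Iglv1: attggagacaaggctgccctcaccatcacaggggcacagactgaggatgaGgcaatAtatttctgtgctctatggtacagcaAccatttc
Iglv2: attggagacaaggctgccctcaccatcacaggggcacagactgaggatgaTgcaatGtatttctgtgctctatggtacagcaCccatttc

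Over the 201 segments the median share of 50-base windows of the transcript found in no other V row was 77.5%. For 57 segments it was over 90% and for 26 under 50%, Ighv1-53 (42.4%), Igkv1-110 (49.1%) and Igkv3-12 (41.6%) among the latter. Values of these 3 may be too low, since reads that align equally to a relative were dropped, or may include reads that belong to a relative. No segment overlapped an exon of another gene.

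The V segments were expressed at about 2 times the vehicle level in marrow after oxaliplatin. Their summed level, as CPM scaled by the TMM method of edgeR, was 747, 1013, 747, 671 and 857 CPM in vehicle-treated mice 1 to 5 and 1883, 2047, 1028, 2099 and 1127 CPM in oxaliplatin-treated mice 1 to 5. All 5 oxaliplatin-treated mice lay above every vehicle-treated mouse, mice 1, 2 and 4 well above mice 3 and 5. The group means were 807 ± 133 and 1637 ± 518 CPM (SD, n = 5 per group), a ratio of 2.03. In raw counts the segments held from 23533 to 34827 counts with vehicle and from 41797 to 94312 with oxaliplatin, or 0.0768% ± 0.0139 and 0.173% ± 0.0574 of all counts.

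The kappa and heavy-chain sums were both about 2 times as high on average, and the lambda sum overlapped between groups. The Igkv sum was 383 ± 50.8 CPM with vehicle and 793 ± 248 CPM with oxaliplatin (SD, n = 5), without overlap. The Ighv sum was 382 ± 62.8 and 788 ± 268 CPM, with 4 of 5 oxaliplatin-treated mice above the highest vehicle-treated mouse and mouse 3, at 441 CPM, below vehicle-treated mouse 2, at 475 CPM. The Iglv sum was 42.1 ± 22.8 and 55.5 ± 24.4 CPM, a log2 ratio of 0.43 that was 0.70 without vehicle-treated mouse 2, at 81.6 CPM, and 0.21 without oxaliplatin-treated mouse 2, at 94.5 CPM. Whether lambda differed from the other loci was not tested. Lambda segments made up 9.53% ± 3.37 of light-chain V level with vehicle and 6.87% ± 3.03 with oxaliplatin, again with overlap. The ratio of Ighv to Igkv level was 0.996 ± 0.0399 and 0.988 ± 0.119, so heavy and kappa segments kept about the same balance on average. These sums are scores over segments chosen with results known and were given no test.

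**Figure D1:**
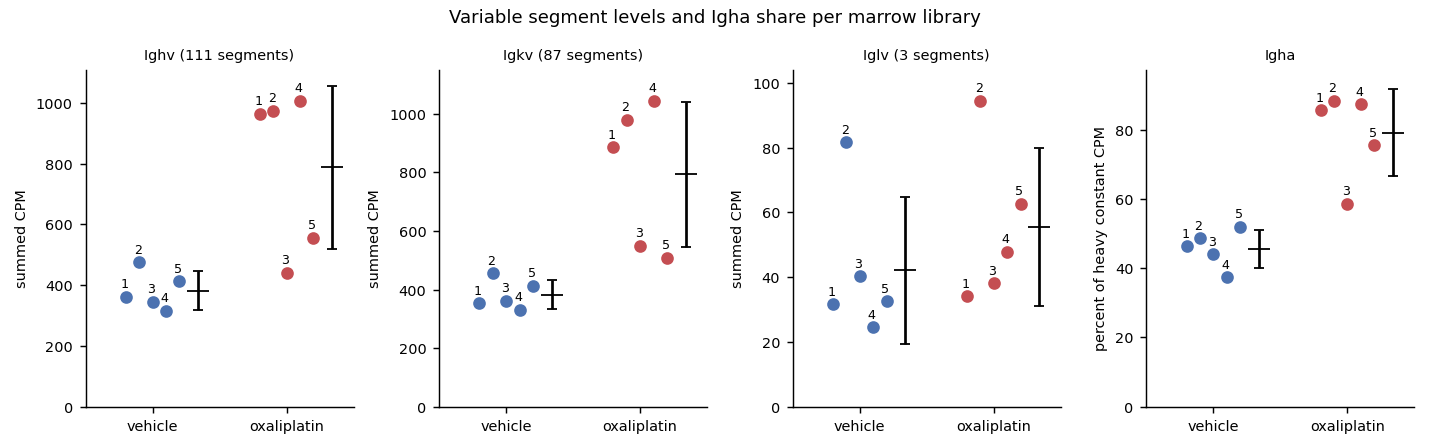
Summed TMM-scaled CPM of the Ighv, Igkv and Iglv segments and the share of Igha in the heavy-chain constant regions, in each marrow library. Points are mice with their label number, and the black marks are the group mean and SD (n = 5); the Igkv sum and the Igha share do not overlap between groups, while oxaliplatin-treated mouse 3 lies inside the vehicle range for Ighv.

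Of the 201 segments, 183 had enough counts to be tested (100 Ighv, 80 Igkv and 3 Iglv) and 18 did not. By the quasi-likelihood test of edgeR (two-sided, p-values adjusted by the Benjamini-Hochberg method across 22363 genes), 29 segments were higher after oxaliplatin with an adjusted p below 0.05 and more than 1.5-fold change, or 15.8% of those tested, where 11.6% of all genes tested were called higher. When the change was tested against 1.5-fold, 11 segments (6.01%) and 6.02% of all genes were called higher, so the segments' share was then no larger. Only 4 segments, or 2.19%, were called lower, against 11.8% of all genes. Called either way, the share was 18.0% for the segments and 23.3% for all genes. The fold change of a segment was above 1 in 135 of 183, and the median log2 fold change was 0.72 over the tested segments and -0.038 over all genes tested. Since 15 segments entered through the oxaliplatin group alone, these counts describe the tested segments and not the locus.

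By locus, 18 of 100 tested Ighv segments were higher and 3 lower (median log2 fold change 0.65), 11 of 80 Igkv segments were higher and 0 lower (0.77), and of the 3 Iglv segments 0 were higher and 1 lower. Every oxaliplatin-treated mouse was above every vehicle-treated mouse in 10 segments, where 11.4% of all genes tested showed such separation, and below in 3, where 13.5% did. In the segments this was 5.46% and 1.64%, below the share over all genes in both directions. Leaving out a mouse moved the number of segments called higher to between 20 (without vehicle-treated mouse 1, 10.5% of the segments tested and 10.5% of all genes) and 44 (without oxaliplatin-treated mouse 5), and the number called lower to between 4 and 7 (without oxaliplatin-treated mouse 1).

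**Figure D2:**
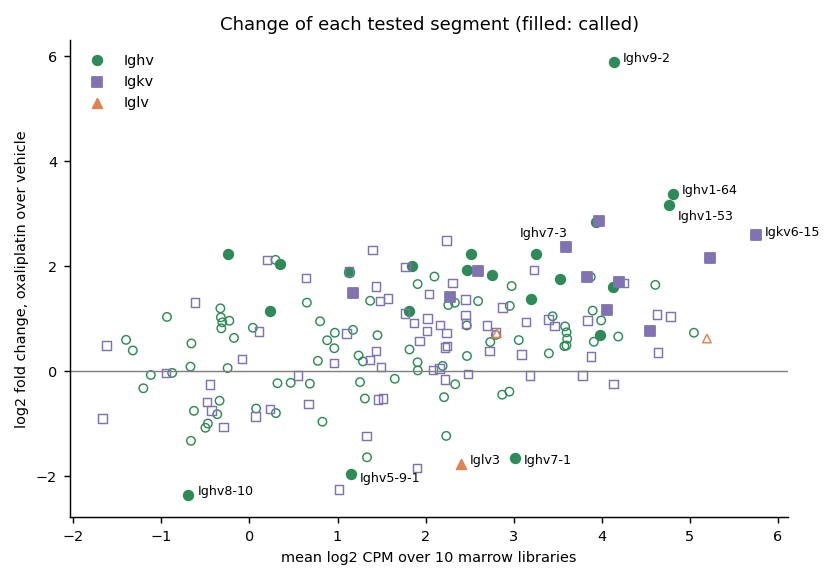
Log2 fold change of oxaliplatin over vehicle against mean log2 CPM for the 183 tested segments, from the edgeR fit. Filled symbols are the 29 segments called higher and the 4 called lower; 135 segments lie above 0, and the highest, Ighv9-2 at 5.90, stands apart from the rest.

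Among the called segments whose groups did not overlap and whose mean log2 CPM was 1 or more, the 5 with the highest rises were Ighv1-53, Igkv10-94, Igkv2-109, Ighv1-34 and Igkv5-48. Ighv1-53 was at 7.69, 4.74, 5.04, 4.67 and 5.00 CPM with vehicle and 14.6, 59.6, 10.2, 143 and 16.0 CPM with oxaliplatin. All 5 oxaliplatin-treated mice were above the vehicle range, mouse 4 by far the most. The log2 fold change was 3.17 (SE 0.73, edgeR adjusted p = 0.00685).

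Igkv10-94 was at 3.70, 4.34, 5.70, 2.94 and 2.79 CPM with vehicle and 68.7, 6.93, 9.09, 9.57 and 6.52 CPM with oxaliplatin, a log2 fold change of 2.37 (SE 0.69, edgeR adjusted p = 0.0215). Mouse 1 carried most of this rise; without it the log2 fold change was 1.05, and without vehicle-treated mouse 5 the adjusted p was 0.0532. Igkv2-109 was at 2.69, 4.42, 0.945, 2.22 and 2.18 CPM with vehicle and 7.11, 5.74, 4.82, 17.9 and 11.6 CPM with oxaliplatin, a log2 fold change of 1.92 (SE 0.43, edgeR adjusted p = 0.00398). Its oxaliplatin-treated mice were all above the vehicle range, mouse 3 by the least.

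Ighv1-34 was at 0.981, 6.08, 2.62, 1.82 and 3.09 CPM with vehicle and 12.4, 13.6, 7.74, 8.50 and 9.97 CPM with oxaliplatin, a log2 fold change of 1.84 (SE 0.38, edgeR adjusted p = 0.00259). This was among the most even rises, with the oxaliplatin-treated mice all within 7.74 to 13.6 CPM. The share of 50-base windows found in no other V row was 54.3% for Ighv1-34, 53.4% for Igkv10-94 and 79.4% for Igkv2-109. Igkv5-48, whose 50-base windows occur in no other V row, was at 5.35, 4.36, 3.81, 10.1 and 8.03 CPM with vehicle and 16.1, 40.3, 10.8, 28.2 and 14.7 CPM with oxaliplatin. Its log2 fold change was 1.80 (SE 0.38, edgeR adjusted p = 0.00362), and oxaliplatin-treated mouse 3 was just above vehicle-treated mouse 4.

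Igkv14-111 and Igkv8-27, both among the 8 kappa segments with the highest mean level, rose too. Igkv14-111 was at 5.86, 12.6, 5.70, 11.8 and 6.86 CPM with vehicle and 49.3, 20.2, 30.2, 21.3 and 19.0 CPM with oxaliplatin, a log2 fold change of 1.71 (SE 0.32, edgeR adjusted p = 0.00142), without overlap. Igkv8-27 was at 23.3, 17.8, 12.9, 19.4 and 12.6 CPM with vehicle and 31.8, 28.8, 42.3, 21.6 and 22.6 CPM with oxaliplatin, a log2 fold change of 0.77 (SE 0.21, edgeR adjusted p = 0.0123). Oxaliplatin-treated mice 4 and 5 overlapped vehicle-treated mouse 1 in Igkv8-27. The call of Igkv8-27 was lost in 2 of 11 alternative settings of the fit, while that of Igkv14-111 was kept in all 11.

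The 4 segments called lower were Iglv3, Ighv7-1, Ighv5-9-1 and Ighv8-10, the last a low one; Ighv5-9-1 and Ighv8-10 fall outside the rule for named segments and were added after their values were seen. Iglv3 was at 7.15, 9.81, 6.40, 8.04 and 9.00 CPM with vehicle and 2.33, 3.35, 1.58, 1.82 and 2.83 CPM with oxaliplatin. The groups were well apart, and the log2 fold change was -1.76 (SE 0.22, edgeR adjusted p = 5.50e-05). Ighv7-1 was at 13.7, 9.51, 6.24, 24.8 and 6.79 CPM with vehicle and 5.04, 2.13, 5.36, 3.12 and 3.77 CPM with oxaliplatin, a log2 fold change of -1.65 (SE 0.38, edgeR adjusted p = 0.00542), also without overlap.

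Ighv5-9-1 went from 3.47 ± 1.06 to 0.889 ± 0.768 CPM (log2 fold change -1.96, SE 0.45, edgeR adjusted p = 0.00471), with oxaliplatin-treated mouse 5 at 2.24 CPM inside the vehicle range. Ighv8-10, at 0.961 ± 0.547 and 0.186 ± 0.116 CPM (SD, n = 5), had a log2 fold change of -2.36 (SE 0.54, edgeR adjusted p = 0.00443). Its oxaliplatin values lay near the floor of 3 counts, which corresponds to between 0.0668 and 0.0975 CPM in these libraries.

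Within lambda, use shifted away from Iglv3 while the other segments were not called. Iglv1 was at 20.0, 64.4, 29.8, 12.8 and 17.2 CPM with vehicle and 28.6, 82.6, 22.3, 34.7 and 54.0 CPM with oxaliplatin (log2 fold change 0.62, SE 0.47, edgeR adjusted p = 0.350). Iglv2 was at 5.25 ± 1.58 and 8.64 ± 4.42 CPM (log2 fold change 0.72, SE 0.35, edgeR adjusted p = 0.136). Per exonic length, Iglv3 made up 22.4% of lambda use with vehicle (range 12.2% to 32.9%) and 4.64% with oxaliplatin (3.62% to 6.96%), without overlap. Iglv3 was the second segment of the locus in all 5 vehicle-treated mice and Iglv2 in all 5 oxaliplatin-treated mice.

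V use was less even after oxaliplatin in most mice. Evenness was measured as the effective number of segments, the exponential of the Shannon entropy of use within a locus, where use is the count divided by exonic length. For Ighv it was 52.1, 56.3, 59.7, 53.5 and 59.1 with vehicle and 38.3, 31.5, 53.9, 37.1 and 44.2 with oxaliplatin. Mice 1, 2, 4 and 5 of the oxaliplatin group were below every vehicle-treated mouse, while mouse 3 was inside their range. The means were 56.2 ± 3.35 and 41.0 ± 8.51 (SD, n = 5) of a possible 111.

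For Igkv the effective number was 43.9, 48.1, 49.0, 41.4 and 45.4 with vehicle and 34.2, 19.1, 44.2, 31.9 and 42.6 with oxaliplatin, with means of 45.6 ± 3.10 and 34.4 ± 10.0 of a possible 87. Oxaliplatin-treated mice 1, 2 and 4 were below the vehicle range and mice 3 and 5 within it. With the leading segment of each mouse left out, the log2 ratio of the groups went from -0.48 to -0.33 for Ighv and from -0.46 to -0.20 for Igkv. The difference was smaller but of the same sign in both loci. When mice were left out singly, the log2 ratio lay between -0.58 and -0.39 for Ighv and between -0.57 and -0.26 for Igkv, the last without oxaliplatin-treated mouse 2.

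Fewer segments were needed to account for 50% of use, 14.2 ± 1.79 with vehicle and 9.40 ± 2.97 with oxaliplatin in Ighv, and 11.8 ± 1.30 and 8.60 ± 3.44 in Igkv. The 10 most used Ighv segments held 41.5% ± 4.50 and 52.2% ± 7.99 of use, and the 10 most used Igkv segments 46.0% ± 4.27 and 55.4% ± 8.97 (SD, n = 5). Thinned to the same number of counts (10964 for Ighv over all its rows), vehicle libraries were expected to show 133 to 138 segments and oxaliplatin libraries 125 to 131, without overlap. At 11156 counts of Igkv the numbers were 112 to 119 and 94.8 to 104, also without overlap. Evenness was given no test, as a score over chosen segments.

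**Figure D3:**
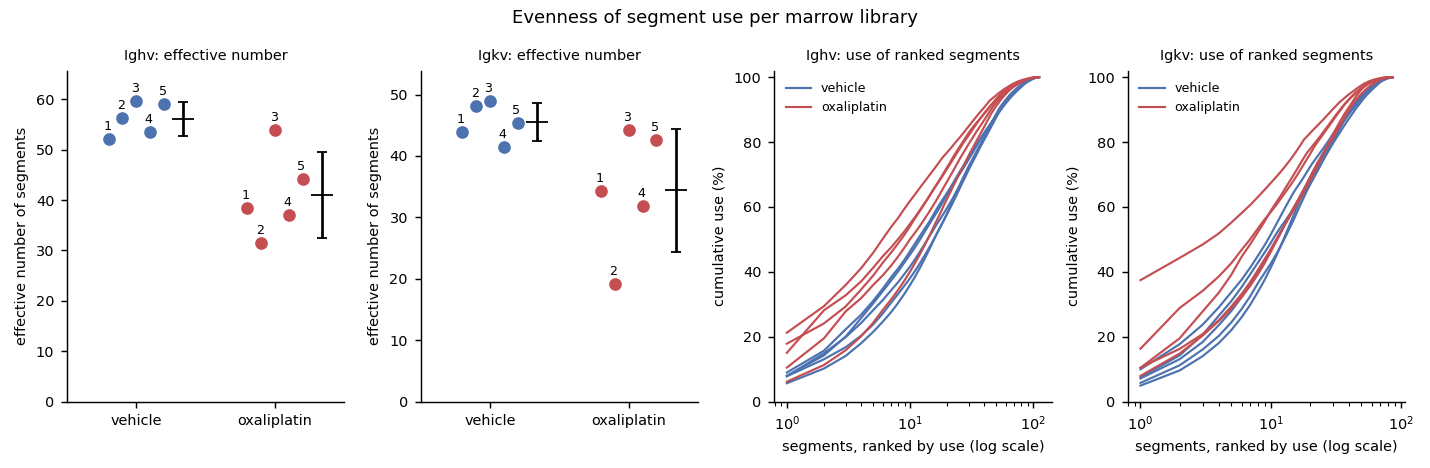
Effective number of segments per marrow library (points with the mouse number, black marks the mean and SD, n = 5) and the cumulative share of use over segments ranked by use (log axis), each line a mouse. In Ighv, 4 of 5 oxaliplatin-treated mice lie below every vehicle-treated mouse, and in Igkv oxaliplatin-treated mouse 2 starts at 37.4% with its leading segment.

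The leading segment differed from mouse to mouse, and its share of use was higher with oxaliplatin. In Ighv the leader took 8.96%, 7.84%, 5.66%, 7.98% and 7.82% of use in vehicle-treated mice 1 to 5 (Ighv1-80, Ighv1-39, Ighv1-26, Ighv7-1 and Ighv1-26). In oxaliplatin-treated mice it took 17.8% (Ighv9-2), 21.2% (Ighv1-64), 6.15% (Ighv9-3), 15.0% (Ighv1-53) and 10.5% (Ighv6-3). All but mouse 3 were above the vehicle range, and each oxaliplatin-treated mouse had a leader of its own.

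In Igkv the vehicle leaders Igkv15-103, Igkv6-23, Igkv10-96, Igkv15-103 and Igkv6-23 took 7.51%, 5.76%, 4.93%, 9.95% and 7.14% of use. The oxaliplatin leaders took 10.4% (Igkv6-17), 37.4% (Igkv6-15), 7.92% (Igkv8-27), 16.3% (Igkv1-110) and 10.5% (Igkv3-12). Mice 1, 2, 4 and 5 were above the vehicle range. The mice with the least even heavy-chain use, 2, 4 and 1, were also those with the least even kappa use; their leaders were Ighv1-64 with Igkv6-15, Ighv1-53 with Igkv1-110, and Ighv9-2 with Igkv6-17.

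**Figure D4:**
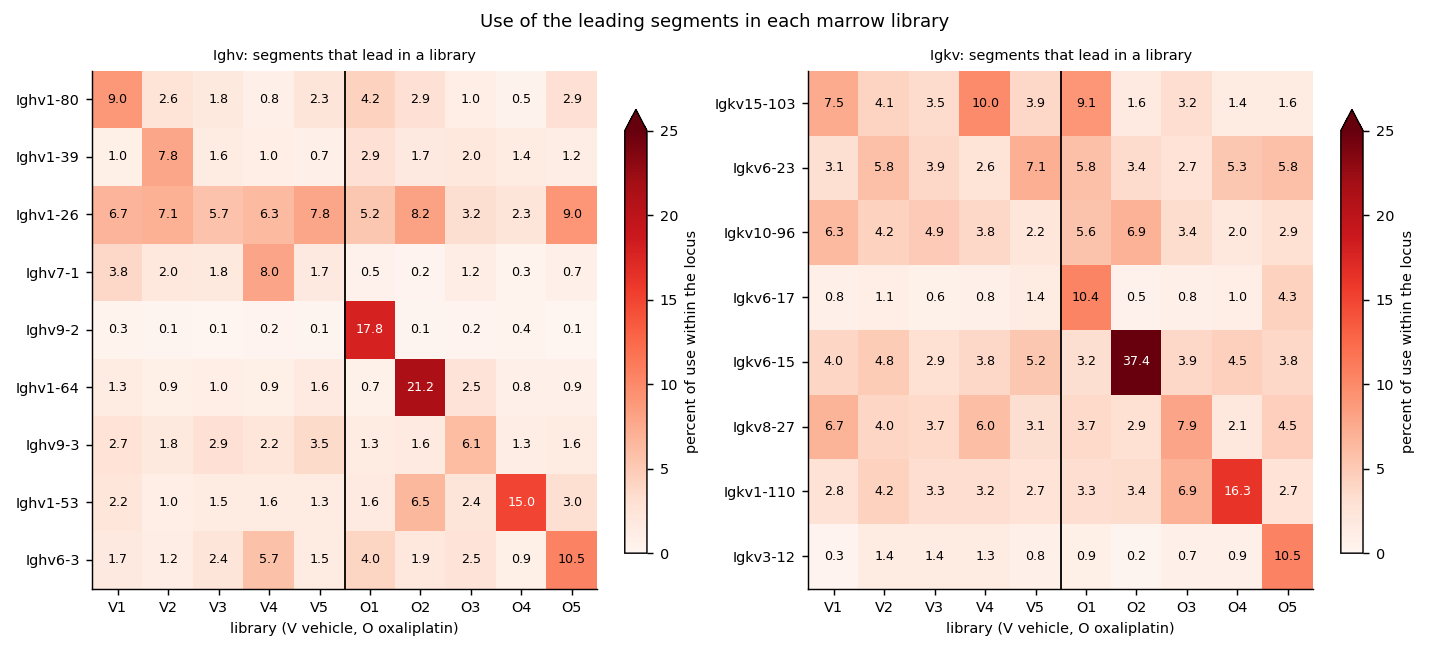
Share of use within the locus, per exonic length, of each segment that led in any mouse; columns are vehicle (V) and oxaliplatin (O) libraries and the colour scale ends at 25%. Most oxaliplatin leaders are high in a single mouse, such as Ighv9-2 in mouse 1 and Igkv6-15 in mouse 2, whereas Ighv1-26 is used in every library.

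Several of the called rises were largest in these single mice, though not every such call was lost without that mouse. Ighv9-2 was at 1.04, 0.466, 0.252, 0.627 and 0.487 CPM with vehicle and 167, 0.940, 0.909, 3.54 and 0.512 CPM with oxaliplatin. Mouse 1 held 96.6% of the group's sum, mouse 4 was also above the vehicle range, and mice 2, 3 and 5 lay inside it. The log2 fold change of 5.90 (SE 1.86, edgeR adjusted p = 0.0344) fell to 1.36 without mouse 1 (edgeR adjusted p = 0.0842). The call was lost in 6 of 10 fits with a mouse left out, those without each vehicle-treated mouse among them.

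Ighv1-64 was at 5.32, 4.86, 3.81, 3.19 and 7.41 CPM with vehicle and 7.17, 223, 12.2, 8.50 and 5.20 CPM with oxaliplatin, with 87.1% of the group's sum in mouse 2. Its log2 fold change of 3.38 (SE 1.14, edgeR adjusted p = 0.0454) was 0.75 without mouse 2 (edgeR adjusted p = 0.066). Here the call was lost in 7 of 10 such fits, again with those without each vehicle-treated mouse among them. Igkv6-15, the leading kappa segment of the same mouse, was at 13.3, 20.8, 9.99, 11.9 and 20.3 CPM with vehicle and 26.7, 354, 20.1, 43.3 and 18.5 CPM with oxaliplatin. Mouse 2 stood far above, mice 1 and 4 above and mice 3 and 5 within the vehicle range.

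For Igkv6-15 the log2 fold change was 2.60 (SE 0.88, edgeR adjusted p = 0.0462) and 0.83 without mouse 2, where the call was kept. The call was lost without each of the vehicle-treated mice in turn and without oxaliplatin-treated mouse 3. Ighv6-3 was at 5.89, 5.47, 8.00, 17.4 and 6.04 CPM with vehicle and 38.1, 17.9, 10.7, 8.55 and 56.1 CPM with oxaliplatin. Only mouse 4 of the oxaliplatin group and mouse 3 lay within the vehicle range; the log2 fold change was 1.61 (SE 0.54, edgeR adjusted p = 0.0396), and the call was lost in 7 of 10 fits with a mouse left out.

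Igkv1-110 was at 10.9, 21.0, 12.9, 11.7 and 12.1 CPM with vehicle and 31.5, 36.9, 40.9, 183 and 15.0 CPM with oxaliplatin. Mouse 4 was the highest and mouse 5 lay within the vehicle range, and the log2 fold change was 2.16 (SE 0.61, edgeR adjusted p = 0.0190). Igkv6-17 was at 3.78 ± 1.61 CPM with vehicle and at 94.6, 5.27, 4.31, 10.6 and 22.3 CPM with oxaliplatin (log2 fold change 2.86, SE 0.85, edgeR adjusted p = 0.0249), high in mice 1, 4 and 5. Both calls remained with each mouse left out in turn, but both were lost with no filter beyond 1 count, in the test against 1.5-fold and with the replicate block, with edgeR adjusted p up to 0.0781 for Igkv1-110 and 0.109 for Igkv6-17, and that of Igkv6-17 also with the covariate of Y-linked expression.

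Other abundant segments were high in a single mouse and were not called. Ighv1-12 reached 138 CPM in oxaliplatin-treated mouse 4 and lay between 5.67 and 26.2 CPM in the other 4 (edgeR adjusted p = 0.242), and its log2 fold change of 1.65 was -0.017 without that mouse. Igkv1-133 was at 132 CPM in the same mouse and at 0.533 to 6.11 CPM in the others, and ranged from 0.285 to 24.9 CPM with vehicle (edgeR adjusted p = 0.446). Igkv3-12 was at 52.2 CPM in mouse 5 and 1.47 to 8.72 CPM in the rest (edgeR adjusted p = 0.119). Igkv15-103 reached 82.0 CPM in oxaliplatin-treated mouse 1 against 8.06 to 18.1 CPM in the others and 21.8 ± 8.43 CPM with vehicle (edgeR adjusted p = 0.677).

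Among vehicle-treated mice, Ighv1-39 was at 35.8 CPM in mouse 2 and at 2.86 to 5.10 CPM in the others, and Ighv1-80 ranged from 2.51 to 31.2 CPM, so segments high in a single mouse occurred with vehicle as well. Ighv1-26, the most used Ighv segment of vehicle-treated mice 3 and 5 and the second of mice 1, 2 and 4, was at 24.8 ± 6.48 CPM with vehicle and 41.3 ± 24.2 CPM with oxaliplatin (log2 fold change 0.73, SE 0.39, edgeR adjusted p = 0.182). Of the other abundant segments that were not called, Ighv1-9 had a log2 fold change of 0.66, Ighv3-6 of 0.97, Ighv9-3 of 0.62, Igkv6-23 of 1.04 and Igkv10-96 of 1.08, with edgeR adjusted p from 0.0724 to 0.184.

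The spread between mice was larger with oxaliplatin across the segments. The SD over the 5 mice of log2 CPM, with 0.5 CPM added to each value, was larger with oxaliplatin in 135 of 183 segments. Its median was 0.85 against 0.55. The added amount narrows the spread of low levels more, and most segments were lower with vehicle. Its part in the difference was not tested, and the same count over all genes is not given here. A single mouse held over 50% of its group's summed level in 52 of the 183 segments with oxaliplatin and in 30 with vehicle. In the oxaliplatin group this mouse was 1 or 4 in 17 segments each, 2 or 5 in 7 each and 3 in 4. This count over all genes is not given here either, so a larger spread cannot be called particular to the segments.

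Mice also shared less of their V use after oxaliplatin. Shared use, the sum over segments of the smaller share of a pair of mice, had a median of 70.4% (65.5% to 73.7%) over the 10 vehicle pairs and 53.5% (46.2% to 58.8%) over the 10 oxaliplatin pairs in Ighv. In Igkv it was 67.0% (63.6% to 74.1%) and 55.5% (44.9% to 62.9%). Pairs of a vehicle and an oxaliplatin mouse lay between, with medians of 57.6% in Ighv and 61.7% in Igkv. No oxaliplatin pair reached the lowest vehicle pair in either locus, though pairs that share a mouse are not independent.

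The calls were spread over V families, which group segments of similar sequence and are numbered in the symbol. Ighv1, the largest, had 54 tested segments, of which 10 were higher and 0 lower (median log2 fold change 0.68), and took 58.9% of Ighv use with vehicle and 58.5% with oxaliplatin. Igkv4 had 20 tested segments with 1 higher (median 0.65), and Igkv6 had 8 with 2 higher (median 1.06). Ighv8 and Ighv7 each held 1 segment called higher and 1 called lower. Over all genes tested, 11.6% were called higher and 11.8% lower, and whether a family differed from this was not tested.

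The changes showed no order along the loci. Over 100 tested Ighv segments Spearman's rho between position on chromosome 12 and log2 fold change was 0.016, and over 80 Igkv segments on chromosome 6 it was -0.018; segments of a locus share libraries, so these are descriptions. Of the tested segments annotated as functional, 27 of 172 were higher and 3 lower (median 0.72), and of those annotated as pseudogenes 2 of 11 were higher and 1 lower (median 0.53). Pseudogenes, which cannot encode a chain, held 0.976% of the counts. Among the 47 tested segments with over 90% unique windows, 5 were higher and 3 lower, with a median of 0.49. The 5 are 10.6% of these segments, below the 11.6% of all genes called higher, so the share was not larger than over all genes in the segments whose counts are least shared with relatives. With 47 segments and a cutoff chosen after seeing the data, this cannot settle whether their share differs from the 15.8% over the 183.

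The constant regions to which V exons are joined split by class. Igha, the constant region of IgA, was at 608, 875, 528, 505 and 765 CPM with vehicle and 2302, 2647, 858, 2534 and 1213 CPM with oxaliplatin, a log2 fold change of 1.54 (SE 0.30, edgeR adjusted p = 0.00162). Mouse 3 of the oxaliplatin group lay below vehicle-treated mouse 2 and the other 4 above the vehicle range. Ighm, the IgM region that naive B cells and early B lineage cells use, fell from 569 ± 120 to 225 ± 42.9 CPM (log2 fold change -1.34, SE 0.16, edgeR adjusted p = 4.09e-05), and Ighd, the IgD region of naive B cells, from 55.9 ± 11.9 to 14.8 ± 6.78 CPM (log2 fold change -1.92, SE 0.33, edgeR adjusted p = 9.81e-04), both without overlap.

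Of the 12 constant regions, 3 were higher (Igha, Igkc and Ighe), 2 lower (Ighm and Ighd) and 7 not called. The shares over all genes tested, 11.6% higher and 11.8% lower, stand beside this and beside the gene lists below. Igkc, the kappa constant region, was at 696 ± 61.7 and 1362 ± 428 CPM without overlap (log2 fold change 0.97, SE 0.20, edgeR adjusted p = 0.00197). Ighe, the IgE region, was low at 0.288 ± 0.225 and 1.68 ± 2.14 CPM, and its call as higher (edgeR adjusted p = 0.0374), with 5.47 CPM in oxaliplatin-treated mouse 1, was lost in 5 of 10 fits with a mouse left out. Ighg2c, an IgG region, stood at 264 CPM in oxaliplatin-treated mouse 3 and at 18.3 to 29.6 CPM in the other 4, and was not called (edgeR adjusted p = 0.280).

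As a share of the summed heavy-chain constant regions, Igha made up 46.4%, 48.6%, 44.0%, 37.4% and 51.9% with vehicle and 85.6%, 88.3%, 58.5%, 87.3% and 75.5% with oxaliplatin, without overlap. Mouse 3, with the lowest Igha share of its group, was also the mouse with the most even V use. Ighm went from 40.0% ± 6.75 to 11.1% ± 5.81. The Ighv sum per heavy constant level was 0.268 ± 0.0212 with vehicle and 0.335 ± 0.0228 with oxaliplatin (SD, n = 5), without overlap, and the Igkv sum per Igkc was 0.548 ± 0.0293 and 0.583 ± 0.00841, with overlap. Heavy-chain constant regions differ in length between classes, so the first ratio also moves with class.

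Genes of other stages of the lineage moved in opposite directions. Of 11 genes of B lymphocytes (among them Cd79a, Ms4a1 and Pax5), 11 were lower, and their summed level was 409 to 684 CPM with vehicle and 130 to 174 CPM with oxaliplatin. Of 10 genes of plasma cells, 5 were higher (Sdc1, Prdm1, Xbp1, Jchain and Fkbp11), 1 lower (Irf4, log2 fold change -1.74, edgeR adjusted p = 8.30e-05) and 4 not called. Of these 4, Slamf7 (-0.59) and Mzb1 (-0.39) had negative log2 fold changes, and Tnfrsf17 (0.91) and Derl3 (0.50) positive ones. Jchain (326 ± 122 CPM with oxaliplatin) and Xbp1 (210 ± 17.4 CPM) had the highest levels in the list and so weigh most in its sum. The plasma cell sum was 337, 398, 309, 352 and 363 CPM with vehicle and 717, 757, 474, 755 and 460 CPM with oxaliplatin, high in the same mice, 1, 2 and 4, in which the V sum was high.

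The V sum per plasma cell sum was 2.29 ± 0.246 with vehicle and 2.55 ± 0.244 with oxaliplatin, with overlap. Relative to Jchain, which encodes the joining chain of IgA and IgM and rose with a log2 fold change of 1.35 (SE 0.25, edgeR adjusted p = 0.00108), the V sum was 6.35 ± 0.399 and 5.13 ± 0.476, the highest oxaliplatin-treated mouse (5.90) just below the lowest vehicle-treated one (5.92). The part of these cell types in the V levels was not tested.

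**Figure D5:**
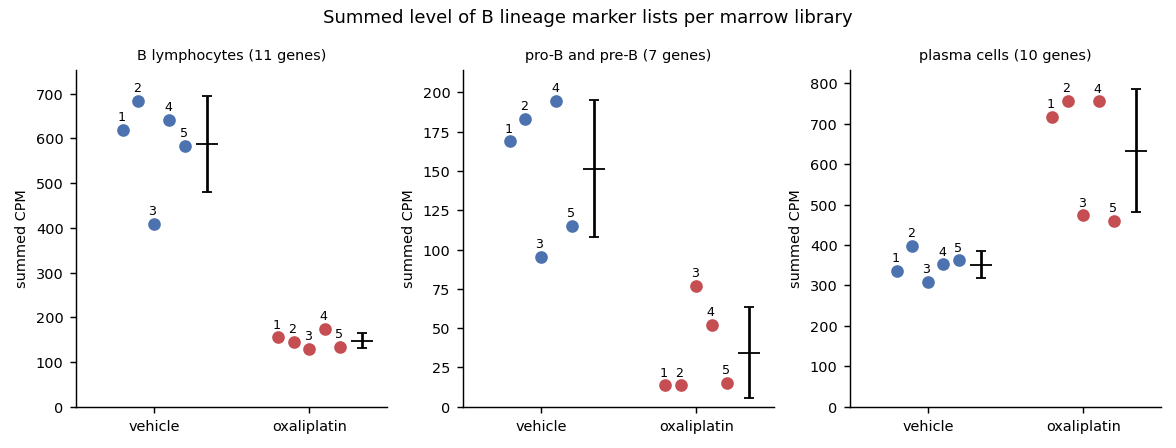
Summed TMM-scaled CPM of marker lists of B lymphocytes, pro-B and pre-B cells and plasma cells in each marrow library (points with the mouse number, black marks the mean and SD, n = 5). The B lymphocyte list is lower in every oxaliplatin-treated mouse (130 to 174 CPM) than in any vehicle-treated mouse (409 to 684 CPM), and the plasma cell list is higher.

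Of 13 genes of recombination and the surrogate light chain, 0 were higher and 4 lower, against 11.6% and 11.8% of all genes tested. Rag1, whose product cuts DNA beside V segments together with that of Rag2, was at 55.0, 58.4, 29.5, 69.8 and 38.3 CPM with vehicle and 0, 0.219, 14.6, 8.17 and 0.377 CPM with oxaliplatin (log2 fold change -3.40, SE 1.09, edgeR adjusted p = 0.0374). It was near 0 in mice 1, 2 and 5 and well above 0 in mice 3 and 4, and the call was lost in 6 of 10 fits with a mouse left out. Rag2 (-2.92, edgeR adjusted p = 0.0181), Vpreb3, a partner of the nascent light chain (-3.08, edgeR adjusted p = 0.00374), and Lig4, the ligase of the joining step (-0.64, edgeR adjusted p = 0.0135), were also lower, Lig4 not in 3 of 10 such fits.

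Dntt, which adds bases at the joints, and the surrogate light chain genes Igll1 and Vpreb1 followed the same division by mouse and were not called (edgeR adjusted p from 0.257 to 0.384). Dntt was at 0.461, 1.54, 29.0, 14.1 and 1.54 CPM with oxaliplatin, and at 25.5 ± 6.94 CPM with vehicle. Mice 3 and 4, in which Rag1 and Dntt were highest in the group, had the most even and the second least even V use of the group. The list of pro-B and pre-B genes had 4 of 7 lower, with sums of 95.6 to 195 CPM and 13.6 to 76.9 CPM.

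Other marrow cells changed as well. All 4 genes of adipocytes were higher (summed level 15.6 to 38.1 CPM with vehicle and 128 to 699 CPM with oxaliplatin), 3 of 4 genes of proliferation were lower, and of 7 genes of T lymphocytes 1 (Cd4) was lower. Since CPM is relative to all RNA, a change in the make-up of the tissue can move a V level with no change in its absolute amount; this was not tested. Scaling by library size alone moved the median log2 fold change of all genes from -0.038 to 0.11, and 41 segments (22.4%) were then called higher and 4 lower, where 15.3% of all genes were called higher and 8.87% lower.

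In kidney the V segments were scarce and their sum was lower after oxaliplatin. They held 242, 178, 426, 233 and 349 counts in vehicle-treated mice 1 to 5 and 148, 97, 195, 219 and 142 in oxaliplatin-treated mice, and the summed level was 11.5 ± 4.67 and 5.51 ± 1.84 CPM (SD, n = 5), with overlap. Igkc and Igha were lower in all 5 oxaliplatin-treated kidneys than in any vehicle kidney, at 11.9 ± 5.52 and 3.40 ± 1.32 CPM for Igkc and 20.8 ± 11.8 and 6.29 ± 2.42 CPM for Igha. In marrow all 3 of these levels had higher means with oxaliplatin.

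A single V segment had enough counts for the kidney test, the pseudogene Igkv14-134-1, and it was called higher (log2 fold change 0.95, edgeR adjusted p = 0.0241), where 7.68% of all genes tested in kidney were called higher and 3.81% lower. Its kidney counts were 24, 28, 12, 48 and 22 with vehicle and 58, 50, 86, 46 and 60 with oxaliplatin, all of them even numbers, as were 91.9% of the 37 kidney counts of 10 or more over all V rows. The part of the counting unit in this call was not tested. Without this segment the V segments held 150 to 414 and 47 to 173 counts. In marrow it was not called (log2 fold change 0.76, edgeR adjusted p = 0.115). It made up 21.0% to 51.5% of V counts in oxaliplatin-treated kidneys, and the rest of the segments had fewer counts there with oxaliplatin on average. The call was lost without vehicle kidney 1, 3 or 5 or without oxaliplatin kidney 3.

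In a fit over both tissues, 17 of 179 tested segments had a change that was lower in kidney than in marrow at an adjusted p under 0.05 in edgeR's interaction test, and 0 had a higher one. Over all 24321 genes tested, 17.0% were lower and 13.1% higher, so the share of the segments was below that of all genes in both directions. Named segments among the 17 were Igkv8-27 (difference of log2 fold changes -5.30, edgeR adjusted p = 6.16e-04), Igkv10-96 (-3.26, 0.00857), Ighv9-3 (-3.32, 0.0130), Igkv6-23 (-3.19, 0.0288) and Igkv5-48 (-4.58, 0.0403). Kidney counts behind these were small, for Igkv8-27 4, 8, 24, 0 and 10 with vehicle and 2, 0, 0, 0 and 0 with oxaliplatin, and Igkv5-48 had at most 6 counts in any kidney.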

How the data were processed

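RNA was sequenced from bone marrow and kidney of mice given vehicle or oxaliplatin, with 5 libraries in each of the 4 groups. The deposited tables hold raw counts per gene. Per the study's methods the authors used STAR for alignment to Ensembl release 101 and kept uniquely aligned, unambiguous reads; per the labels featureCounts and Salmon were also used, and ribosomal RNA was removed before random priming, whereas the methods name another library kit. The strand setting was not given in the sources used here, nor whether reads or read pairs were counted: 68.8% of marrow counts from 1 to 9 were even, but 50.7% of those from 100 to 1000, and 91.9% of kidney V counts of 10 or more were even, so neighbouring low counts are not fully independent units. Reads that align to several V segments were dropped, which lowers the count of segments with close relatives.

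Of 55774 lines per table, 287 repeated a gene and 1 lacked a value, and the remaining 55486 genes were used. The marrow test covered 22363 genes, the kidney test 19293 and the interaction 24321, after filterByExpr with a minimum count of 10. Counts were tested with edgeR 4.0.16 (R 4.3.3, limma 3.58.1; TMM scaling, robust quasi-likelihood fit, treatment as the only term, two-sided, Benjamini-Hochberg adjustment over all genes tested), and a gene was called at an adjusted p under 0.05 and a fold beyond 1.5. Calls of the interaction used the adjusted p alone. The procedure was tested on simulated counts. Exonic length, annotation, strand and coordinates came from GENCODE M21 on GRCm38, which covered all 348 V rows. Figures used Python 3.11.15, numpy 2.4.6, pandas 2.3.3 and matplotlib 3.10.9.

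The floor of 3 counts, and every statement on depth, covers counting error only. Summed levels, evenness and ratios carry means and SD over mice and no test. The segments named were the 8 Ighv, 8 Igkv and 3 Iglv with the highest mean log2 CPM, the leading segment of each mouse, and the 5 largest called rises and falls whose mean log2 CPM was 1 or more and whose groups did not overlap; only 2 falls met this. Some listed genes are not reported here by name. The members and the gene lists were chosen with earlier results of these data known. The mice of a group are separate samples per the labels. Alternatives included DESeq2 1.42.0, other scalings and filters, a covariate of Y-linked expression, a replicate block and leaving out each mouse. A search of V promoters was not run, since their sequences were not among those used here.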

Additional observations from a re-analysis of the deposited data

Results flagged for a closer look

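In a group of 5 mice, a value was marked when its gap to the nearest other mouse exceeded 0.710 of the group's range, Dixon's critical value, which chance passes in about 1 in 20 groups. Of 112 groups examined, 22 were marked, 14 with oxaliplatin and 8 with vehicle. Many of the segments examined had been named for leading in a mouse or for a large rise, so this number cannot be read against the chance rate.

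In the oxaliplatin group, mouse 1 was at 167 CPM for Ighv9-2 (others 0.512 to 3.54), 94.6 CPM for Igkv6-17 (4.31 to 22.3), 82.0 CPM for Igkv15-103 (8.06 to 18.1) and 68.7 CPM for Igkv10-94 (6.52 to 9.57). Mouse 2 was at 223 CPM for Ighv1-64 (5.20 to 12.2), 354 CPM for Igkv6-15 (18.5 to 43.3) and 46.8 CPM for Ighv3-6 (8.87 to 18.7), and its leading kappa segment took 37.4% of use (7.92% to 16.3% in the others). Mouse 4 was at 138 CPM for Ighv1-12 (5.67 to 26.2), 183 CPM for Igkv1-110 (15.0 to 40.9) and 132 CPM for Igkv1-133 (0.533 to 6.11). Mouse 5 was at 52.2 CPM for Igkv3-12 (1.47 to 8.72). Among constant regions, Ighg2c was at 264 CPM in mouse 3 (18.3 to 29.6) and Ighe at 5.47 CPM in mouse 1 (0.536 to 1.29).

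In the vehicle group, mouse 2 stood apart for Ighv1-39 at 35.8 CPM (2.86 to 5.10), Igkv1-110 at 21.0 CPM (10.9 to 12.9), the Iglv sum at 81.6 CPM (24.6 to 40.2) and Iglc3 at 26.9 CPM (5.36 to 8.27). Mouse 1 was high for Ighv1-53 at 7.69 CPM (4.67 to 5.04) and low for Ighg2b at 41.8 CPM (70.3 to 79.0), mouse 3 was high for Ighg3 at 47.5 CPM (3.08 to 8.58) and mouse 4 for Ighv6-3 at 17.4 CPM (5.47 to 8.00).

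The change with oxaliplatin differed between tissues, by edgeR's interaction test, for 5 of 29 named segments. Over all genes tested, 17.0% had a lower change in kidney and 13.1% a higher one, so such a difference was common among all genes. The change in kidney minus that in marrow, on the log2 scale, was -3.32 for Ighv9-3, -3.19 for Igkv6-23, -3.26 for Igkv10-96, -5.30 for Igkv8-27 and -4.58 for Igkv5-48, with few kidney counts behind each.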

How the results depend on the processing

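The 29 segments called higher in marrow became 18 with no filter beyond 1 count (8.96%, against 6.69% of all genes), 11 when tested against a 1.5-fold change (6.01% against 6.02%) and 5 among segments with over 90% unique windows (an alternative chosen after seeing the data, with 47 segments tested), and 22 to 41 in the other settings. Leaving out a mouse gave 20 to 44 higher and 4 to 7 lower. The kidney call of 1 segment became 0 with the replicate block and 0 to 1 with a mouse left out. Kidney segments called lower went from 0 to 14 with no filter beyond 1 count, where 775 of 37270 genes were called lower. That setting also tested segments too low for the main kidney test, and the cause of these calls was not tested. Leaving out a mouse gave 0 lower.

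The log2 ratio of evenness in Ighv, -0.48, was -0.80 by the Simpson index and -0.0907 as the rarefied number of segments, which weigh common and rare segments differently. In Igkv it lay between -0.80 and -0.16 in all settings. The summed V level kept its direction in all 4 alternatives and with each mouse left out (log2 ratio 0.86 to 1.12).

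Directions turned for segments and constant regions that had not been called. With the replicate block the log2 fold change was -0.0602 for Igkv15-103, -0.67 for Igkv1-133 and -0.0069 for Iglc2; the cause was not tested. With a mouse left out it ranged from -0.017 to 1.96 for Ighv1-12, -0.58 to 0.61 for Igkv15-103, -1.55 to 2.505 for Igkv1-133, -0.065 to 0.64 for Ighg1, -0.43 to 1.60 for Ighg2c, -1.19 to 0.52 for Ighg3 and -0.096 to 0.31 for Iglc2.

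Same-numbered marrow mice deviated together in 1 of 5 pairs (correlation over 0.1), and 1 of 5 correlated best with its own number, so the numbers were not taken as pairs; with the block, 22 segments were higher and 5 lower. In kidney a single segment passed the filter on low counts, so the scarcity of V counts (97 to 426 per library) limited the kidney test to that segment. Library totals were 24393007 to 30925430 in kidney and 30660153 to 41140527 in marrow.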
